A study of Mus musculus with 40 samples.

Results

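The genes of the mitochondrial ribosome were followed in the infarcted mouse heart. They were taken as every row of the deposited expression table whose symbol starts with Mrpl or Mrps, which gave 74 of 11450 genes, 46 named Mrpl and 28 named Mrps. Adult C57BL/6 mice, a common inbred strain, had the left anterior descending coronary artery tied off permanently, so that muscle of the left ventricle died and was replaced by scar. Each heart gave 2 libraries, 1 of the scar tissue (injured region) and 1 of tissue remote from it (uninjured region). Hearts were taken on days 3, 7, 14, 21 and 42 from 4 mice per day, 20 mice and 40 libraries in all, and no mouse without ligation is used here. The labels of the day 42 mice begin with B and all earlier ones with A, so a change from day 21 to day 42 cannot be told apart from a change of label series. Levels are RPKM, read numbers corrected for gene length and for a library size that was not a plain total of reads. A label number that recurs on another day was treated as another mouse.

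The mitochondrial ribosome translates the few messenger RNAs that mitochondrial DNA encodes, all of them core subunits of the respiratory chain and ATP synthase. Its ribosomal RNAs come from mitochondrial DNA, whereas all of its proteins are encoded in the nucleus, made in the cytosol and imported. Some of these proteins descend from bacterial ribosomal proteins and others were added in the mitochondrial lineage. Heart muscle is among the tissues richest in mitochondria, and inherited defects of several of these proteins, among them MRPL3, MRPL44 and MRPS22, cause cardiomyopathy.

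All 74 genes passed the filter on low values (at least 1 RPKM in 4 or more libraries). Of the listed symbols, 4 had no row (Mrpl23, Mrpl53, Mrpl58 and Mrps33), and no value is given for them. By role, 29 encode large-subunit proteins with a bacterial counterpart and 19 large-subunit proteins specific to mitochondria, including Mrps18a and Mrps30, which sit in the large subunit despite their names. A further 16 encode small-subunit proteins with a bacterial counterpart and 9 small-subunit proteins specific to mitochondria. Mrps36 carries the name but encodes a component of the 2-oxoglutarate dehydrogenase complex, and it is counted apart. Read numbers were recovered from the steps of the deposited values, and a gene of the group had between 17 and 5858 reads in a library, with a median of 562.

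Nearly the whole group was lower in the scar on every day. The mean level over all 74 genes, on the log2(RPKM + 1) scale, was 3.12 ± 0.06 (SD, n = 4) in the injured region on day 3 against 4.45 ± 0.08 in the uninjured region. On day 7 the injured mean was 2.77 ± 0.09 and the uninjured mean 4.33 ± 0.12. Day 42 gave 3.04 ± 0.10 and 4.37 ± 0.04. The injured libraries lay between 2.67 and 3.20 and the uninjured libraries between 4.18 and 4.61, so the regions did not overlap on any day. In bulk tissue, fewer cells of a type and less RNA per cell cannot be told apart.

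**Figure D1:**
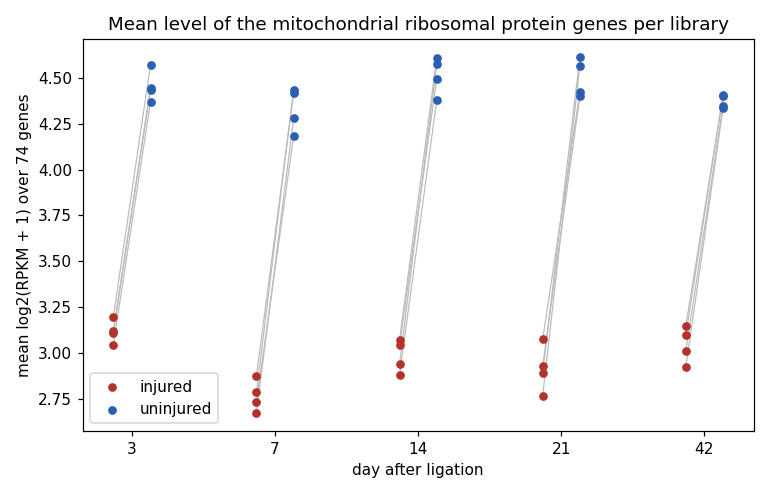
Mean log2(RPKM + 1) of the 74 genes in each library (points, vertical axis) by day after ligation (horizontal axis), with grey lines joining the 2 regions of a mouse. All 20 injured libraries lie at 3.20 or below and all 20 uninjured libraries at 4.18 or above.

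Gene by gene, limma with the mouse as a block called 72 of the 74 genes lower in the injured region on day 3 (Benjamini-Hochberg adjusted p under 0.05 over 11390 genes), where 39.6% of all genes tested were called lower. On day 7 it called 73 lower (38.7% of all genes), on day 14 73 (40.5%), on day 21 73 (41%) and on day 42 73 (38.7%). In either direction, limma called 83.7%, 82.2%, 82.9%, 84% and 79.2% of all genes on these days. None of the 74 was called higher on any day by limma, where 44.1% of all genes were on day 3, and those with an unadjusted p under 0.05 in either direction numbered 72, 74, 73, 73 and 73. By voom on the recovered reads none was called higher either, while 1 or 2 genes were called higher in the injured region on 4 of the days when values were scaled to recovered reads, and 1 on day 3 after quantile normalization. The median log2 difference of the group was -1.31, -1.53, -1.51, -1.61 and -1.35 on the 5 days, which is 2.47, 2.89, 2.86, 3.04 and 2.55-fold lower on the log2(RPKM + 1) scale. Over all genes tested the median was between 0.03 and 0.06. Called lower on all 5 days were 72 of the 74 genes, against 28.8% of all genes, and the same number was lower in 20 of 20 mice. For 70 genes all 20 injured values lay below all 20 uninjured values, as did 20.7% of all genes.

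The deposited scaling matters for the size of these differences. Recovered reads divided by the size of the library implied by the RPKM had a median of 0.70 in injured and 0.94 in uninjured libraries. The value was 1.02 in the uninjured libraries of A8 on day 3 and A3 on day 21. Reads of the listed genes thus exceeded the implied size there, which a plain total of reads does not allow. How that size was set is not given in the sources used here, and scaling to recovered reads takes it out. Scaled to recovered reads instead, the group median became -0.82, -1.30, -1.11, -1.17 and -0.93, while the median of all genes moved to 0.46, 0.29, 0.38, 0.40 and 0.38. Relative to the median of all genes, the group stood at -1.36, -1.58, -1.55, -1.64 and -1.38 as deposited and at -1.28, -1.58, -1.49, -1.58 and -1.31 with the other scaling.

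Both subunits shared the difference. Large-subunit genes with a bacterial counterpart were all called lower, 29 of 29 on each day, with medians of -1.41 on day 3, -1.63 on day 7 and -1.39 on day 42. Large-subunit genes specific to mitochondria were called lower in 18 of 19 cases on day 3 and 19 of 19 afterwards, with medians from -1.36 to -1.67. Small-subunit genes with a bacterial counterpart were called lower in 15 of 16 cases on every day, with medians of -1.05 on day 3, -1.32 on day 7 and -1.49 on day 21. Small-subunit genes specific to mitochondria were lower in 9 of 9 cases, with medians from -1.28 to -1.61. Differences between the roles were not tested. Within each role the genes spread widely: on day 7 the large-subunit genes specific to mitochondria ran from -3.41 to -0.53.

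**Figure D2:**
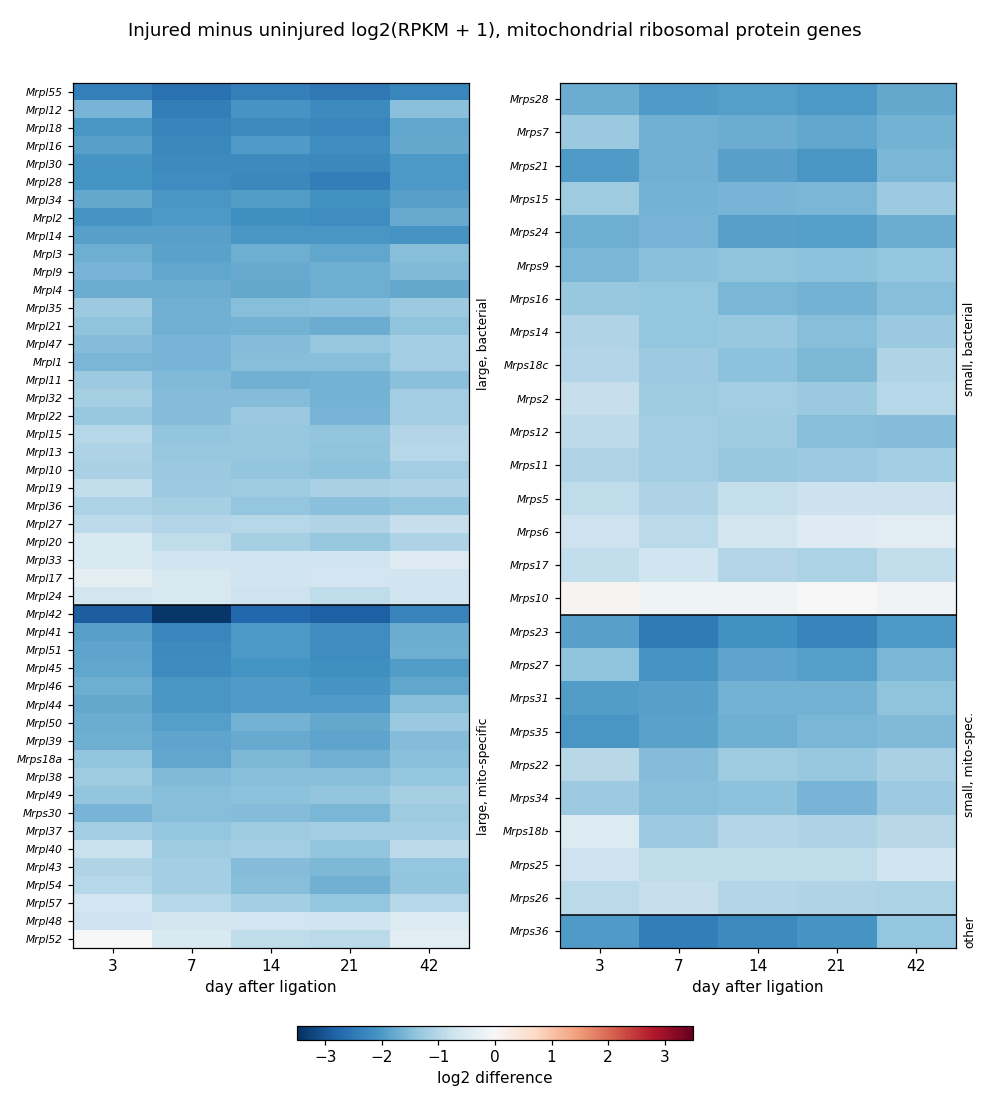
Injured minus uninjured log2(RPKM + 1) of each of the 74 genes (rows, grouped by role and ordered by day 7) on each day (columns), colour scale below. Blue prevails in all groups, Mrpl42 on day 7 (-3.41) is the darkest cell, and Mrps10 and the day 3 cell of Mrpl52 are nearly white.

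The strongest difference on every day was that of Mrpl42, a large-subunit protein specific to mitochondria (chromosome 10, 95480805 to 95501940, minus strand, mm10). On day 7 its RPKM were 32.2, 33.6, 29.1 and 31.4 in the scar, and the uninjured tissue of those mice had 368, 381, 354 and 284. Day 42 gave 75.9, 90.3, 67.7 and 55.2 against 371, 356, 398 and 299. No injured library, at 90.3 or less over all days, came near the lowest uninjured library at 284. The log2 differences were -2.90, -3.41, -2.75, -2.84 and -2.30 on the 5 days, each with a standard error of 0.14 (limma, adjusted p of 4.4e-15 on day 7, lower in 20 of 20 mice). Mrpl42 also had the highest mean level of the group, 208 RPKM. That level is uncertain, since the deposited values imply a gene length of 666 bases where the GENCODE M21 exons add up to 3682. A length error cancels between regions.

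Mrpl55, a large-subunit protein with a bacterial counterpart, ran from 6.19 to 11.4 RPKM over the 20 scar libraries (median 8.58) and from 36.0 to 63.4 over the others (median 50.6). Its log2 differences of -2.38, -2.62, -2.39, -2.51 and -2.28 (SE 0.11) made it one of 3 genes at -2 or lower on all 5 days, with Mrpl42 and Mrpl28. Mrpl28, also of the large subunit, had differences of -2.09, -2.19, -2.27, -2.41 and -2.02 (SE 0.12). Mrps23, a small-subunit protein specific to mitochondria, was the second most abundant of the group, with a mean of 58.0 RPKM. Its injured values on day 7 were 12.2, 13.7, 14.9 and 14.6 RPKM, and the uninjured values of the same mice were 79.5, 87.9, 89.6 and 72.1. The 2 sets lie far apart, with a log2 difference of -2.49 ± 0.09 (SE; limma adjusted p 1.6e-15). Mrpl34, the third in abundance at 52.6 RPKM, differed by -1.79 on day 3 and -2.12 on day 21. On day 42 the 3 most negative genes were Mrpl42, Mrpl55 and Mrpl14, a protein at the face of the large subunit, at -2.07 ± 0.11 (SE).

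Mrpl12 encodes the stalk protein of the large subunit, which recruits translation factors. Its injured RPKM were 15.5, 21.5, 16.8 and 16.7 on day 3 and 7.11, 7.14, 9.37 and 11.1 on day 7. In the uninjured region it had 53.1, 61.1, 58.5 and 54.5 on day 3 and 38.2, 55.9, 60.6 and 48.3 on day 7. All 8 injured libraries of these days lay below all uninjured ones. On day 42 the uninjured values spread from 22.7 to 74.9 RPKM (28.7, 22.7, 36.6 and 74.9), the widest spread of this gene on any day, against 13.2, 14.99, 14.0 and 9.53 in the scar. The highest of these uninjured values is that of mouse B12. The log2 differences were -1.64, -2.42, -2.06, -2.23 and -1.45 (SE 0.22), and without B12 that of day 42 was -0.99. Of its 1532 exon bases, 200 overlap Gm16755 on the other strand, and whether the counting used strand is not given in the sources used here.

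Among the genes with a known part in cardiomyopathy, Mrpl3, near the peptidyl transferase centre, ran from 3.43 to 5.43 RPKM in scar libraries and from 14.7 to 19.8 elsewhere. Its differences were -1.70 on day 3 and -1.89 on day 7 (SE 0.08). Mrpl44, which has an RNase III-like fold, differed by -1.79 on day 3, -2.05 on day 7 and -1.48 on day 42 (SE 0.09). Mrps22, a small-subunit protein specific to mitochondria, differed by -0.98, -1.50, -1.26, -1.32 and -1.12 (SE 0.06). All 3 were lower in 20 of 20 mice with no overlap between regions.

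The Mrps18 paralogs have separate places in the ribosome. Mrps18a, in the large subunit, differed by -1.37 to -1.81 over the 5 days and Mrps18c, in the small subunit, by -1.02 to -1.56. Mrps18b, also of the small subunit, had 5.03, 5.51, 6.02 and 5.21 RPKM in the injured region on day 3 against 7.31, 9.04, 7.89 and 7.43. By day 7 its injured values were 1.70, 2.46, 2.90 and 3.08 against 7.07, 7.56, 8.13 and 7.09. The difference went from -0.47 ± 0.10 on day 3 to -1.27 ± 0.10 on day 7 (SE), and scaled to recovered reads the day 3 value shrank to -0.03 (limma adjusted p 0.79). Exons of Mrps18b share 30.5% of their bases with Gm16279 on the other strand. Mrpl41 and Mrps30, both in the large subunit, differed by -1.73 to -2.29 and by -1.24 to -1.62.

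Mrps36, the dehydrogenase component, moved with the ribosomal genes. On day 14 it had 1.08, 1.63, 1.25 and 1.90 RPKM in the injured region and 12.5, 16.1, 8.22 and 7.31 in the uninjured region. Day 42 gave 1.41, 1.82, 1.20 and 1.52 against 6.06, 6.36, 6.57 and 3.17. The regions did not overlap over the 20 mice, and the differences ran from -1.36 to -2.41 (SE 0.24). Its reads were the fewest of the group, with a median of 94.5 per library. At scar levels this low, the added 1 RPKM makes its differences come out too small beside those of abundant genes such as Mrpl42.

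Only Mrps10 and Mrpl52 were not called lower on all 5 days. Mrps10, a small-subunit protein with a bacterial counterpart, had the lowest mean of the group at 1.93 RPKM. Its injured values on day 3 were 2.31, 2.24, 2.29 and 1.97 RPKM and its uninjured values 2.15, 2.20, 1.78 and 1.87. On day 21 they were 1.71, 1.52, 1.999 and 1.91 against 1.85, 1.99, 1.86 and 1.62. The regions overlapped on these days, and the injured value was the lower one in 12 of 20 mice. The log2 differences were 0.10, -0.15, -0.12, -0.02 and -0.11 (SE 0.07), with limma adjusted p of 0.20, 0.053, 0.10, 0.75 and 0.14. Their direction depends on the scaling: quantile normalization gave -0.18 on day 3 (adjusted p 0.032) and -0.44 on day 7, and scaling to recovered reads gave 0.44 on day 3 and 0.28 on day 21. On day 7 the adjusted p passed 0.05 by voom (0.048), with a pseudocount of 0.1 (0.049) and without mouse A12 of day 7 (0.038).

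Mrpl52, a large-subunit protein specific to mitochondria, was level on day 3 and lower later. Injured RPKM on day 3 were 18.2, 17.7, 22.2 and 19.7 against 17.4, 22.1, 21.9 and 17.7 in the uninjured region, which overlap. By day 14 the values were 13.3, 9.81, 10.8 and 10.2 against 18.2, 23.1, 24.6 and 19.8, which do not. On day 42 they were 12.8, 13.1, 12 and 12.7 against 17.5, 17.3, 15.3 and 16.7. The differences were -0.02, -0.53, -0.90, -0.95 and -0.37 (SE 0.11; limma adjusted p of 0.87 on day 3 and 4.1e-08 on day 21). On day 3 the difference was 0.29 after quantile normalization and 0.46 when scaled to recovered reads, and on day 42 the latter gave 0.05.

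Mrps6, of the small subunit, had the called difference nearest to 0 after that of Mrpl52 on day 42. It had 7.44, 6.10, 5.55 and 4.94 RPKM in the injured region on day 7 against 11.2, 12.1, 13.8 and 12.5, and 10.95, 11.03, 12.7 and 11.1 on day 42 against 14.3, 16.04, 17.6 and 14.3. The groups stayed apart on both days, while injured values of day 42 reached the uninjured range of day 3 (10.7 to 16.4). Its difference went from -0.94 on day 7 to -0.46 on day 21 and -0.41 on day 42 (SE 0.09), and scaled to recovered reads the day 42 value was 0.01. Mrpl48 and Mrps5, low in abundance at 2.80 and 3.77 RPKM, differed by -0.47 to -0.73 and by -0.75 to -1.08 without overlap. Mrpl17, of the large subunit, differed by -0.32 on day 3 and -0.70 on day 42, and Mrpl33, also of the large subunit, by -0.53 and -0.45. Scaled to recovered reads, the direction of Mrpl17 on day 3 was reversed and the differences of Mrpl33 shrank. Over all 20 mice the regions overlapped in Mrpl17, Mrpl52, Mrps6 and Mrps10.

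**Figure D3:**
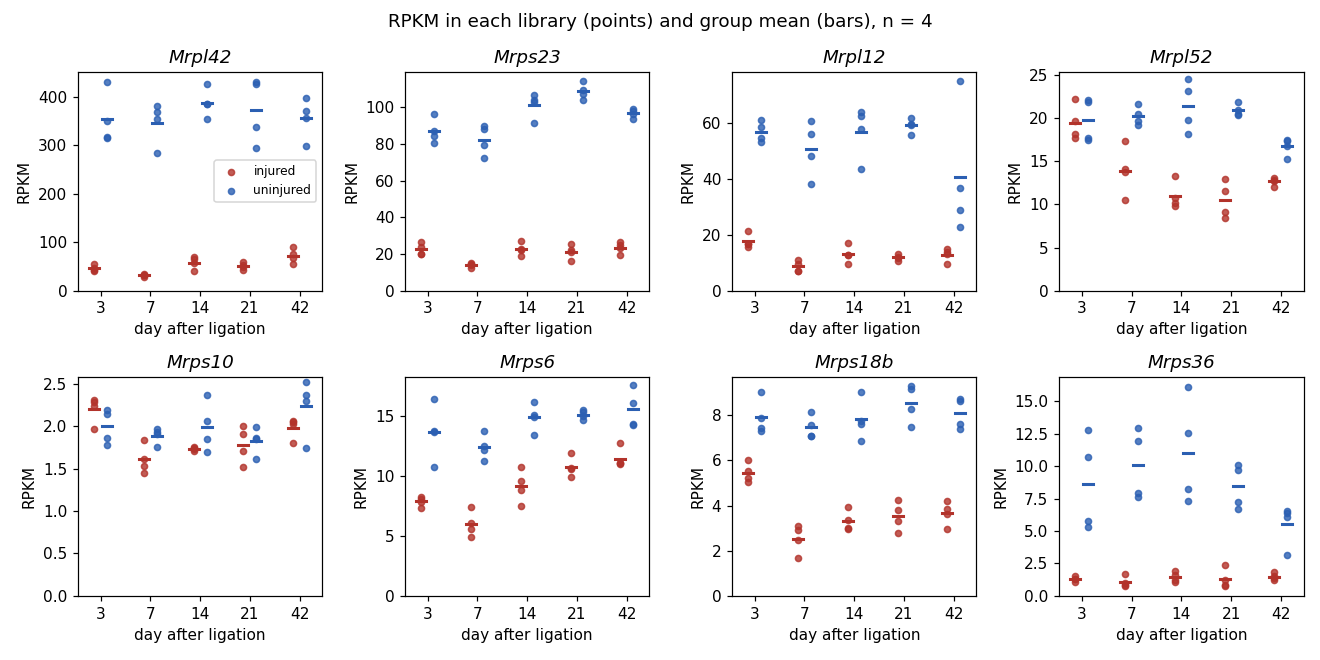
RPKM (linear axes from 0) of 8 genes in each library by day after ligation, injured in red and uninjured in blue, with short bars at the mean of 4 libraries. Mrpl42, Mrps23 and Mrpl12 show separated regions on all days, Mrpl52 separates after day 3 and Mrps10 overlaps.

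How far the difference between regions changed over the days was tested by the interaction of region and day. It was called for 43 of the 74 genes, 58.1%, against 74.3% of all genes. The smallest adjusted p belonged to Mrpl20, a large-subunit protein with a bacterial counterpart, whose difference went from -0.52 on day 3 to -1.32 on day 21 and -1.08 on day 42 (SE 0.08; limma F test, adjusted p 5.9e-05). Scaled to recovered reads, its day 3 value was -0.04 (adjusted p 0.63). Mrpl40 went from -0.78 on day 3 to -1.37 on day 21 and -0.91 on day 42, and Mrpl57 from -0.68 to -1.34 and -1.003. Mrps2 went from -0.81 to -1.31 and -1.003. The most negative of the 5 daily differences fell on day 7 for 31 genes, on day 21 for 30, on day 3 for 5, and on days 14 and 42 for 4 each.

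Within the scar the group fell from day 3 to day 7. In a model of the 20 injured libraries limma called 52 of 74 genes lower and 0 higher, with 56 at an unadjusted p under 0.05 in either direction. Of all genes 32.7% were called lower and 27.7% higher, 60.4% together. The group median was -0.37, against -0.04 over all genes. Mrpl12 fell by 0.96 ± 0.16 on the log2 scale (SE, adjusted p 4.7e-05), Mrps18b by 0.88 ± 0.12 and Mrps27, a small-subunit protein with pentatricopeptide repeats, by 0.82 ± 0.11. Mrps10 fell as well, by 0.29 ± 0.06, although the regions were not called different on either day.

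From day 7 to day 14 limma called 32 genes higher in the scar, where 21.9% of all genes were called higher, and 1 lower (21.2% of all genes), Mrps17, with a group median of 0.23. Mrpl42 rose by 0.83 ± 0.16, Mrps23 by 0.68 ± 0.13 and Mrps6 by 0.54 ± 0.10 (SE; adjusted p of 0.0003 to 0.0004). Over the same step the mean log2(RPKM + 1) of the 16 cardiomyocyte markers lay between 5.66 and 6.41 in the scar on day 7 and between 7.32 and 8.14 on day 14, which do not overlap. The mean of the 38 respiratory chain subunits lay between 4.85 and 4.97 and then between 5.498 and 6.01. From day 3 to day 7 the marker mean went from between 6.15 and 7.19 to between 5.66 and 6.41, which overlap. Their part in the steps of the group was not tested. From day 14 to day 21 it called 0 genes, as over the whole table (0 of 11390), with 5 at an unadjusted p under 0.05. Over days 3 to 21, all within the A label series, 34 genes were lower (34.1% of all genes) and 2 higher (32.5%, together 66.6%), Mrps6 by 0.40 ± 0.10 and Mrps35 by 0.22 ± 0.06. Mrpl52 fell by 0.84 ± 0.13 over those days, Mrpl20 by 0.54 ± 0.14 and Mrpl54 by 0.54 ± 0.13.

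From day 21 to day 42 the scar values of 21 genes were called higher (11.2% of all genes) and 1 lower (13.6%), with a group median of 0.12. Mrps21 rose by 0.64 ± 0.13 (SE, limma adjusted p 0.0015), Mrpl18 by 0.50 ± 0.11 and Mrpl51 by 0.50 ± 0.09, and Mrpl36 fell by 0.44 ± 0.14. The count of higher genes was 12 without mouse A10 of day 21 or without B3, and 13 without A4 of day 21 or without B1. Over all days, 63 of 74 genes changed in the scar by limma's F test, 85.1%, against 87.6% of all genes.

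The same steps were tested in the uninjured region, and the steps of the regions were not tested against each other. From day 3 to day 7 limma called 14 genes lower (14.5% of all genes) and 0 higher (10.4%, 22 genes at an unadjusted p under 0.05 in either direction), among them Mrpl14, which fell by 0.63 ± 0.13, Mrpl2 by 0.50 ± 0.11 and Mrpl28 by 0.44 ± 0.14 (SE). Mrpl28 missed the threshold without A7 or A8 of day 3 or A7 or A12 of day 7, at -0.33 to -0.41. Scaled to recovered reads, 3 genes were lower and 5 higher, and the group median of -0.10 became 0.06. The count lower was 6 without mouse A7 of day 7, 8 without A12 of day 7, 7 without A8 of day 3 and 8 without A5 of day 3. From day 7 to day 14, 18 genes were called higher (7.49% of all genes) and 0 lower (5.56%), with 32 at an unadjusted p under 0.05 by limma, among them Mrps12, of the decoding site, by 0.53 ± 0.10, Mrpl2 by 0.47 ± 0.11 and Mrps24 by 0.44 ± 0.13. That count was 3 without mouse A7 or A12 of day 7 or A5 or A6 of day 14, and 9 without A11 of day 14. It was 5 after quantile normalization and 3 when scaled to recovered reads. Mrps24 lost its call without any 1 of these 5 mice. The group median of this step was 0.18, against 0.03 over all genes, and 0.12 to 0.20 without any 1 of them. After quantile normalization the median was 0.08, and scaled to recovered reads 0.05.

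From day 14 to day 21 no gene of the group was called in the uninjured region, with 0 at an unadjusted p under 0.05 (0.00878% of all genes were called). From day 21 to day 42, 9 genes were called lower (10.1% of all genes) and none higher, Mrpl36 by -0.52 ± 0.11, Mrpl44 by -0.49 ± 0.10 and Mrpl20 by -0.40 ± 0.11 (SE), while Mrpl12 missed the threshold at -0.68 ± 0.24 (limma adjusted p 0.053). Without mouse B9 the count was 3, without A11 of day 21 it was 5, and in both cases Mrpl20 was not among them. Over days 3 to 21, 3 genes were higher (5.72% of all genes) and 0 lower (5.78%), with 10 at an unadjusted p under 0.05 by limma, Mrps23 by 0.32 ± 0.08, Mrpl57 by 0.28 ± 0.09 and Mrpl24 by 0.20 ± 0.06. Only 1 was called without A3 or A4 of day 21 or without A4, A5 or A7 of day 3, and neither Mrpl57 nor Mrpl24 was called then. By the F test over all days 32 genes changed, 43.2%, against 47.2% of all genes, and 21 without mouse B9.

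Other genes of mitochondrial translation were lower in the scar beside the group. The 6 proteins of the mitochondrial ribosome or its membrane anchor that carry other names were all called lower on all days, with medians of -1.39 on day 3 (-0.92 scaled to recovered reads) and -1.63 on day 21. Ptcd3, a small-subunit protein, differed by -1.94 on day 3 and Chchd1, also of the small subunit, by -1.55. Of 12 translation factors 11 were called lower on day 3, with a median of -1.23 (-0.81 scaled to recovered reads). Gfm1, the elongation factor that moves the ribosome along, stood at -2.19 ± 0.10 (SE) and Taco1, an activator of Cox1 translation, at -2.06 ± 0.11. Mtfmt, which formylates the initiator tRNA, was the exception, at 0.13 on day 3 and 0.18 on day 7 (limma adjusted p 0.042), where no translation factor was called higher by voom or after quantile normalization.

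Factors that build the ribosome or modify its RNA differed less. Of 19 tested, 18 were called lower on day 3, with medians between -0.63 and -0.74 over the days, and scaled to recovered reads 11 to 16 were lower with medians from -0.29 to -0.45. The rRNA methyltransferases Nsun4 and Mrm1 differed by -1.48 and -1.36 on day 3. Of 18 mitochondrial tRNA ligases and amidotransferase subunits 17 were lower on day 3, with medians from -0.78 to -0.86 over the days. With values scaled to recovered reads 12 were lower and 1 higher on day 3, and the medians ran from -0.38 to -0.58. Fars2, the ligase for phenylalanine, stood at -1.82 on day 3 and the amidotransferase subunit Gatb at -1.74. All 9 genes of mitochondrial DNA copying and transcription were lower on day 3 (median -1.21). With the scaling to recovered reads 7 were lower and 2 higher, with a median of -0.76. Lrpprc, which stabilises mitochondrial messenger RNAs, stood at -2.36 and the elongation factor Tefm at -1.57.

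A chosen list of 38 nuclear-encoded subunits of the respiratory chain, not all such subunits, differed by more than the ribosomal proteins. All 38 were called lower on all days, with medians of -3.13, -3.23, -2.66, -2.79 and -2.35, and Cox8b, a heart form of a cytochrome oxidase subunit, at -4.79 ± 0.21 on day 3 (SE). Ndufa5, of complex I, stood at -3.44 ± 0.15. Within a library, the mean of the ribosomal group minus that of the chain subunits was -2.21 ± 0.16 in the injured and -3.98 ± 0.06 in the uninjured region on day 3 (SD, n = 4). The injured minus uninjured value of this balance was 1.77 on day 3 (1.65 to 1.94 over the mice), 1.67 on day 7, 1.16 on day 14, 1.22 on day 21 and 1.05 on day 42 (0.91 to 1.18). It was positive in all mice, and a scaling factor of a library cancels from it on a log scale but for the pseudocount. Quantile normalization is not such a factor, and it narrowed the gap between the lists. The chain medians were then -2.28 on day 3, -1.82 on day 14 and -1.58 on day 42. Those of the ribosomal group were -1.18, -1.35 and -1.22.

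**Figure D4:**
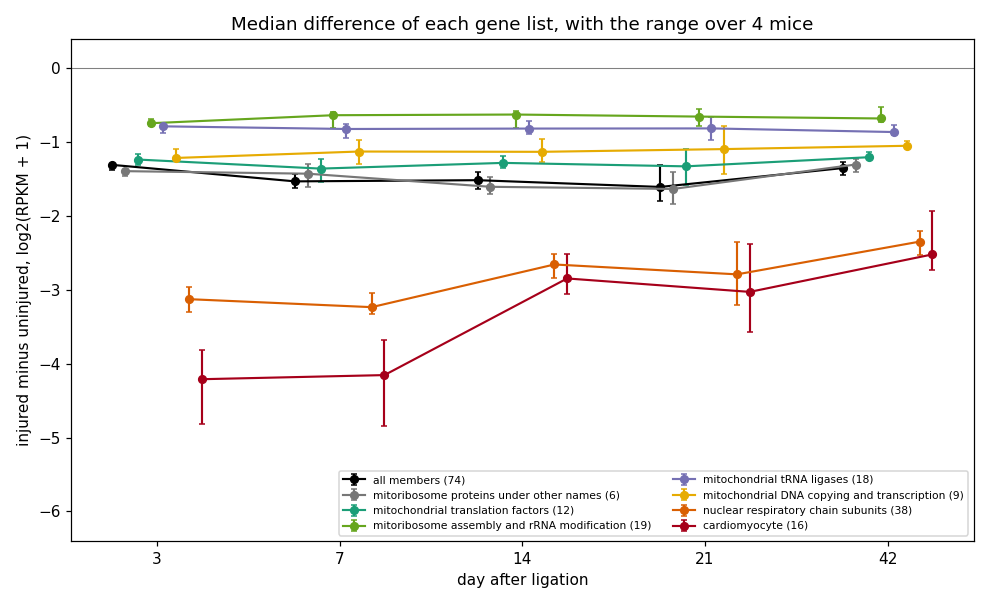
Median injured minus uninjured log2(RPKM + 1) of 8 gene lists by day (number of genes tested in brackets), with bars from the lowest to the highest of the 4 mouse medians. Where a point lies outside that range, its bar ends at the point, as for the ribosomal group on day 3 (mouse medians -1.38 to -1.34). The ribosomal group lies between -1.31 and -1.61, while the respiratory chain goes from -3.13 to -2.35 and the cardiomyocyte markers from -4.21 to -2.52.

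Of 11 regulators of mitochondrial gene expression, limma called 6 lower and 5 higher in the scar on day 3, where 39.6% of all genes were lower and 44.1% higher, a share of higher calls near that of the list. Ppara, a receptor that drives fatty acid oxidation genes, differed by -3.09 ± 0.09 (SE) and its coactivator Ppargc1a by -2.84 ± 0.12, while Esrra, a nuclear receptor of the same programme, stood at -2.0. Nrf1, an activator of ribosomal protein genes of mitochondria, was higher by 0.52 ± 0.08 and Myc by 2.56 ± 0.11. On day 42 limma called 6 lower and 3 higher (38.7% and 40.5% of all genes), and 5 and 5 when scaled to recovered reads. Esrra, Nrf1 and Myc were named after their values were seen.

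Markers of cell types were compared between the regions as well. Of all genes, 39.6% were called lower and 44.1% higher on day 3. On the later days 38.7% to 41% were lower and 40.5% to 43.6% higher. All 16 cardiomyocyte markers were lower in the scar on every day, with medians of -4.21 on day 3 and -2.52 on day 42, and none was at 0 in all libraries. Their summed level ran from 1776 to 9055 RPKM over scar libraries and from 27977 to 45020 RPKM over the others. After quantile normalization 15 of 16 were lower on day 14 with a median of -1.55 (-2.85 as deposited) and 14 of 16 on day 42 with a median of -1.45. Of 10 endothelial markers, 2 were lower and 4 higher on day 3, neither above the share of all genes. On each later day 8 of these endothelial markers were lower, with medians from -0.70 to -0.88. Scaled to recovered reads, the medians of those days ran from -0.27 to -0.61 with 6 to 8 endothelial markers lower. Their summed level ran from 122 to 304 RPKM in the scar and from 226 to 302 RPKM in the other libraries. Of 12 fibroblast markers 9 were higher and 2 lower on day 3, and all 12 were higher on days 7 to 42, and of the 12 macrophage markers 11 were higher on day 7 and 12 on the other days. The summed levels of the fibroblast and macrophage lists were 1886 to 6771 and 723 to 2656 RPKM in the scar against 578 to 1200 and 294 to 471 RPKM. All 14 genes of dividing cells were higher on day 3, with a median of 1.92 and sums up to 226.6 RPKM in the scar. The part of cell makeup in the difference of the ribosomal genes was not tested.

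Promoters of the group were searched for motifs as a description, and the part of the motifs in the difference between regions was not tested. Motif shares in other genes lower in the scar were not worked out. RefSeq promoter windows (GRCm38.p6, 250 bases before to 50 after the start) were found for 65 of the 74 genes, and Mrpl4, Mrpl13, Mrpl15, Mrpl19, Mrpl38, Mrpl54, Mrps28, Mrps34 and Mrps35 had no entry. Of the 4 motifs searched on both strands, the 10-letter NRF1 motif was in 13 of 65 windows, 20%, against 10.6% of the genes in the deposited table and 4.78% of all promoters. The ETS motif CCGGAAG, read by GABPA among others, was in 22 windows, 33.8%, against 18.4% and 9.12%. The YY1 motif AAGATGGC was in 12, 18.5%, against 4.82% and 2.88%, and the ESRRA motif TNAAGGTCA was in 0, against 0.71% and 1.26%. At least 1 of NRF1, ETS and YY1 was in 39 windows, 60%, against 30% and 15.2%. A match describes letters only and shows no binding.

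A few windows of 80 bases show these motifs in genes of the group, each on its own line from 5′ to 3′ on the gene's strand with the motif, or its reverse complement, in capitals. Mrpl12 (chr11:120484521-120484600) and Mrpl30 (chr1:37890359-37890438) are plus-strand genes and hold the NRF1 motif as its reverse complement, on the minus strand. The minus-strand gene Mrps22 (chr9:98601670-98601749) and the plus-strand gene Mrpl52 (chr14:54426839-54426918), the exception of day 3, hold the ETS motif, Mrpl52 in 2 copies as the reverse complement. Mrpl36 (chr13:73330939-73331018, plus strand) holds the YY1 motif as its reverse complement, and Mrps26 (chr2:130563687-130563766, plus strand) both ETS and NRF1.
Mrpl12: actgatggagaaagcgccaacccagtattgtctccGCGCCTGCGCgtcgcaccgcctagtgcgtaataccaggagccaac
Mrpl30: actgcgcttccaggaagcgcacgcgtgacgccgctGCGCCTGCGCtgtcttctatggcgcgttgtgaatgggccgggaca
Mrps22: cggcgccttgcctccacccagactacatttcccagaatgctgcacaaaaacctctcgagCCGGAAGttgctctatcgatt
Mrpl52: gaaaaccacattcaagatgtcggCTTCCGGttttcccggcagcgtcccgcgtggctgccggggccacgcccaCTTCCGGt
Mrpl36: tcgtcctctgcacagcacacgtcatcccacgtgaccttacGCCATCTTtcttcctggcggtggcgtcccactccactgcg
Mrps26: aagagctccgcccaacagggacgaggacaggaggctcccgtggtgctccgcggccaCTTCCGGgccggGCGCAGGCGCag

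The region difference of genes with and without a motif is given by medians, as a description with no test. On day 7 the 13 genes with the NRF1 motif had a median difference of -1.82 and the 52 without it -1.51, and on day 42 these were -1.48 and -1.29. The 22 genes with the ETS motif stood at -1.43 on day 7 and the 43 without it at -1.62, while both stood at -1.60 on day 21, and on day 42 they stood at -1.38 and -1.31. Those with YY1 stood at -1.57 and those without at -1.56. Mrps10, Mrpl28 and Mrpl55, at opposite ends of the range, held none of the 4 motifs in their windows, Mrpl42 held YY1 and Mrps23 held ETS.

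Some of these genes start back to back with another gene, and the share of all genes that do was not worked out. By GENCODE M21, 18 of the 74 had a protein-coding neighbour on the other strand that started at most 1000 bases upstream and ran away from it. Of these neighbours 13 were tested. Pairs with overlapping starts were not counted, such as Mrps11 and Mrpl46, both of the group and both called lower on all 5 days. The 13 ribosomal genes of these pairs had medians of -1.39, -1.51, -1.52, -1.68 and -1.31 on the 5 days and their neighbours -0.10, -0.13, -0.18, -0.17 and -0.14. Of the neighbours 5 were called lower and 5 higher on day 3, 4 and 4 on day 7, 7 and 2 on day 14, 6 and 2 on day 21, and 5 and 2 on day 42. Of all genes 38.7% were lower and 43.6% higher on day 7, and 40.5% and 42.4% on day 14. Scaled to recovered reads, the neighbours' medians were positive on all days, between 0.11 and 0.26, and those of the ribosomal genes stayed between -0.88 and -1.24.

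The pairs differed among themselves. Mrpl30 and Mitd1 start 66 bases apart, and on day 7 they differed by -2.22 and 0.36 between regions. Mrpl49 stood at -1.50 beside 0.65 for Fau, which encodes a protein of the cytosolic ribosome. Mrpl51 stood at -1.84 on day 3 beside 1.21 for Ncapd2, a condensin subunit. Mrps27 and Ptcd2, which encodes another mitochondrial RNA-binding protein, were close, at -2.06 and -2.03 on day 7. The 3 neighbours called lower on all 5 days were Ptcd2, Apba3 and Psma2. The pairs given here were chosen after their values were seen.

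**Figure D5:**
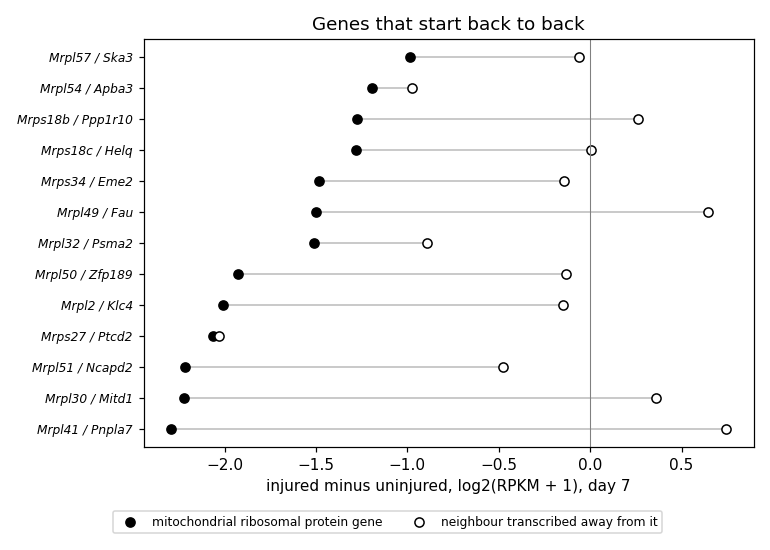
Injured minus uninjured log2(RPKM + 1) on day 7 (horizontal axis) for 13 pairs of genes that start back to back, the mitochondrial ribosomal gene as a filled point and its neighbour as an open point. The filled points lie between -2.29 and -0.99, and the open points between -2.03 and 0.74.

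The 74 genes lie on 17 chromosomes, with at most 10 on any 1 of them. Exons of 31 share bases with another annotated gene, and in 6 the share is over 25%: Mrps34 (77.8%), Mrps25 (69.8%), Mrpl19 (36.0%), Mrpl43 (33.4%), Mrps18b (30.5%) and Mrpl24 (26.3%). Values of these 6 may include reads of the other gene. They were lower in the scar on all days like the rest, for example Mrps34 by -1.49 and Mrpl24 by -0.55 on day 7.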

How the data were processed

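RNA-seq of 40 mouse heart libraries was analysed from 1 table. The authors deposited RPKM values per gene. Per the submitters' processing notes STAR, edgeR and mm10 were used, with no version or role stated. How reads were counted, whether by strand, and how genes were chosen is not given in the sources used here. RNeasy Mini and TruSeq RNA kits were used, per the labels' protocols.

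Whole reads, to within 0.01 of a read, were worked back from the steps of the RPKM values for 11446 of 11450 genes, and came to 11268252 to 24099074 per library. This depth sets the precision of genes with few reads. The 11390 genes that reached 1 RPKM in 4 libraries were tested by limma 3.58.1 (statmod 1.5.0 in R 4.3.3), with trend and robust moderation, on log2(RPKM + 1), where changes of low genes come out too small. Regions were compared in 1 model blocked by mouse, and days within each region, each with 15 residual degrees of freedom. Benjamini-Hochberg adjusted p values cover all genes tested, called under 0.05, and differences are injured minus uninjured with standard errors. The series design states that the regions of a mouse are from 1 heart. The pair's deviations from their group means correlated at 0.15 to 0.54 in 20 of 20 mice. That mice of a group were separate animals is taken from their labels. The scripts were tested on simulated data.

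The members and lists were chosen with earlier results of these data known. Named are the 3 most negative and 3 least negative called genes of each day, those with the smallest interaction p and the extremes of abundance. Also named are the largest called steps between days, members listed by name, and 2 genes per other list, ranked on day 3. Being least negative did not by itself place a gene in the set compared under the alternatives. Alternatives were another pseudocount, no filter, quantile normalization, scaling to recovered reads, no block or a random block, a Xist covariate, each mouse left out, and, chosen after seeing the data, voom on recovered reads. Promoters are from RefSeq and positions from GENCODE M21.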

Additional observations from a re-analysis of the deposited data

Results flagged for a closer look

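Among 90 groups of 4 libraries tested for a value far from the other 3 (8 genes printed by library and the group mean), 3 held one, all on day 42, where chance flags about 1 in 20 groups. Mrps10 in the injured region stood at 1.80 RPKM in mouse B3, below its group. Mrps6 in the injured region stood at 12.7 RPKM in B9, above its group. Mrps36 in the uninjured region stood at 3.17 RPKM in B12, below its group.

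The difference between regions changed over the days by limma's interaction test for 43 genes, 58.1% of the group, against 74.3% of all genes. The 6 smallest adjusted p values were those of Mrpl20 (5.9e-05), Mrpl40 (6.0e-05), Mrpl52 (7.1e-05), Mrpl57 (0.000282), Mrps2 (0.000409) and Mrps22 (0.000419).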

How the results depend on the processing

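The count of genes lower in the scar stayed at 68 or more of 74 on each day under all alternatives run. Named genes, a set without Mrpl17 and Mrpl33, kept direction and side of the threshold in 5311 comparisons with an alternative. Another 40 lost the call, 14 gained one and 8 reversed. The 5311 overstate stability, since leaving out a mouse keeps the differences of other days as they were, as do the filter and block settings. Quantile normalization gave 2 of the reversals and scaling to recovered reads 6. The planned edgeR test on recovered reads was not run, since it needs deposited counts, and voom on recovered reads stood in for it. Depth limits the genes with few reads, above all Mrps36. Genes low in RPKM, such as Mrps10, come out with differences too small because 1 RPKM is added. The cause of the changes below was not tested.

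Pairing: without the replicate block 39 genes changed their region difference over the days and with a random block 46, against 43. With both regions in 1 blocked model, 2 genes were lower in the scar from day 7 to 14 and 1 lower in the uninjured region from day 3 to 21, and the block changed no other count by over 1.5 times.

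The median difference on days 3, 7, 14 and 42 was -1.42, -1.73, -1.64 and -1.48 with a pseudocount of 0.1 and -1.44, -1.72, -1.66 and -1.50 by voom. After quantile normalization it was -1.18, -1.35 and -1.22 on days 3, 14 and 42. Scaled to recovered reads it was -0.82, -1.30, -1.11, -1.17 and -0.93 on the 5 days. Leaving out a mouse moved the day 3 median between -1.33 and -1.29. Genes higher in the scar numbered 2, 1, 1 and 1 on days 3, 14, 21 and 42 when scaled to recovered reads and 1 on day 3 after quantile normalization.

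Reversed in these comparisons were Mrpl52 on day 3 (0.29 by quantile normalization and 0.46 scaled to recovered reads) and on day 42 (0.0503 scaled), Mrps10 on day 3 (-0.18 by quantile normalization) and on days 14, 21 and 42 (0.16, 0.28 and 0.20 scaled), and Mrps6 on day 42 (0.0120 scaled). Mrpl17, which was not among the genes compared, was also reversed on day 3 when scaled to recovered reads.

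In the scar, the 1 gene lower from day 7 to 14 became 0 with a pseudocount of 0.1, scaling to recovered reads, voom or the Xist covariate, and ranged from 0 to 2 without a mouse. Without a mouse, genes lower from day 21 to 42 ranged from 0 to 1, genes higher from 12 to 23, and genes higher from day 3 to 7 from 0 to 1. In the uninjured region, genes lower from day 21 to 42 numbered 5 by quantile normalization and 18 with the Xist covariate, and 3 to 11 without a mouse. Genes higher over that step numbered 3 by quantile normalization, 1 scaled to recovered reads and 0 to 1 without a mouse. From day 3 to 21, genes higher numbered 1 by quantile normalization, 7 with Xist and 1 to 3 without a mouse. From day 3 to 7, 3 were lower and 5 higher when scaled to recovered reads, and 6 to 17 lower without a mouse. From day 7 to 14, genes higher numbered 5 by quantile normalization, 3 scaled to recovered reads, 29 with Xist and 3 to 22 without a mouse. By the test over all days in the uninjured region, 21 changed by quantile normalization and 21 to 39 without a mouse.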
